A study of Rattus norvegicus with 20 samples.

Results

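Glutamate receptors and the proteins of the postsynaptic density were followed in cortical neurons of rats after stroke. The 42 genes, chosen by name from a list of known subunits and scaffolds, are the 4 AMPA receptor subunits, 6 NMDA receptor subunits, 5 kainate receptor subunits, the delta receptor Grid1, 6 metabotropic receptors, 2 Homer proteins, 4 Dlg scaffolds, 4 Dlgap proteins, 3 Shank proteins, 4 subunits of calcium/calmodulin-dependent kinase II (CaMKII), and Grip1, Grip2 and Pick1. All 42 were found on the array, by 53 probes, and all 42 were among the 33091 genes tested. The array names 37 of them by their current symbol. The other 5 (Dlg1 to Dlg4 and Pick1) carry older names on the array and were matched through the RefSeq accession of the probe. The brightest probe stood for a gene, and 11 of the genes have at least 2 probes.

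At an excitatory synapse, glutamate opens AMPA receptors, which carry most of the fast current, and NMDA receptors, which admit calcium when the membrane is already depolarized. Calcium activates CaMKII, which phosphorylates AMPA receptors and helps to hold them at the synapse. Under the membrane, Dlg proteins bind NMDA receptors, Dlgap proteins tie Dlg to Shank, and Shank and Homer reach the metabotropic receptors and the actin cytoskeleton. In cortical pyramidal neurons the subunit make-up of these receptors is known to shift with development and with activity.

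The samples came from 10 rats aged 2 months, in separate cohorts of 5 animals for day 21 and 5 for day 7. All had a stroke and all received cholera toxin B tracers in the cortex beside the infarct, first one coupled to Alexa 488 and then, 21 or 7 days later, one coupled to Alexa 647 at the same site. Laser capture 7 days after the second tracer gave about 300 neurons of each cell type per animal, called sprouting and non-sprouting neurons in the labels, and their RNA went through 2 rounds of T7 amplification. Each animal has 2 arrays with the dyes swapped, and on each array its sprouting neurons were hybridised against its own non-sprouting neurons, so that the 4 groups are sprouting and non-sprouting neurons at day 21 and at day 7. Every animal in these groups was injured, and no uninjured cortex is analysed here. The number of arrays and the small number of captured cells, amplified before labelling, limit the precision.

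The basic value below is the log2 ratio of sprouting over non-sprouting neurons, averaged over both arrays of an animal. Median array intensities ran from 98.7 to 344.7 in Cy5 and from 133.9 to 281.4 in Cy3, and 40.5% to 94.6% of spots lay well above background. All 8 pan-neuronal markers lay well above background on every array in both cell types, and so did most markers of GABAergic interneurons, astrocytes, oligodendrocytes, microglia and vessels. Of 8 markers of glutamatergic projection neurons 5 were measured, and in each group 3 lay well above background on all arrays. RNA of glia and vessels was thus measured beside that of neurons in both cell types. Among the 42 genes, 23 lay well above background on every array of both cell types and days. The dimmest was Grin3a, well above background on 4 or 5 of 10 arrays in each group, and no probe was saturated.

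One animal stands apart. In day 21 replicate 4 the ratios of the 2 arrays, once turned to the same direction, correlated at -0.36 over all genes, against 0.33 to 0.73 in the other 9 animals. Over the 42 genes the correlation was -0.26 in that animal and 0.76 to 0.92 in the other 9. The direction of its ratios is therefore not settled, and their average spans little: the SD over the 42 genes was 0.057 in that animal and 0.163 to 0.348 in the others. Without it, the mean ratios of the 42 genes at day 21 moved by 0.11 at most and by a median of 0.01, and the genes whose ratios are given animal by animal have their day 21 mean over the other 4 animals beside the mean of 5. The same-sign counts without this animal were added after seeing the data.

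None of the 42 genes passed the test in any comparison. Ratios were tested with limma across all genes in 1 fit with a mean per day, two-sided, with Benjamini-Hochberg adjustment and a threshold of 0.05. At day 21, 0 of the 42 genes were called, where 0% of all genes were. At day 7, 0 of 42 were called, where 0.00302% of all genes were, a single gene that is not among the 42. At an unadjusted p under 0.05 there were 3 of 42 at day 21, where 5.85% of all genes passed that mark, and 6 of 42 at day 7, where 9.48% did. Without day 21 replicate 4 there were 5 of 42 at day 21, where 6.56% of all genes passed, and again 0 called. Over the mean of both days, 0 of 42 were called, where 0% of all genes were, and 6 of 42 had an unadjusted p under 0.05, where 11% did. Each count of the 5 animals per day lies within a few genes of its background share.

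As a group the 42 genes were centred on equality between the cell types. At day 21, 19 of the 42 mean ratios were above 0 (49% of all genes) and 23 were below, with a median log2 ratio of -0.017 beside -0.001 over all genes; without replicate 4 there were 20 above and 22 below, with a median of -0.019. At day 7 the split was again 19 above (46.5% of all genes) and 23 below, with a median of -0.009 beside -0.005 over all genes. Single animals had medians between -0.04 and 0.05. Single genes nevertheless spread widely: the median SD between animals was 0.14 for the 42 genes and 0.1 for all genes at day 21, and 0.21 and 0.12 at day 7. The 42 genes were also brighter. Per animal and cell type their median log2 level lay between 7.7 and 8.12, beside 7.24 to 7.35 over all genes. No genes of matched level were compared, so the wider spread is not shown to be particular to the 42 genes. The 2 arrays of an animal differed by a median of 0.1 in these ratios.

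**Figure D1:**
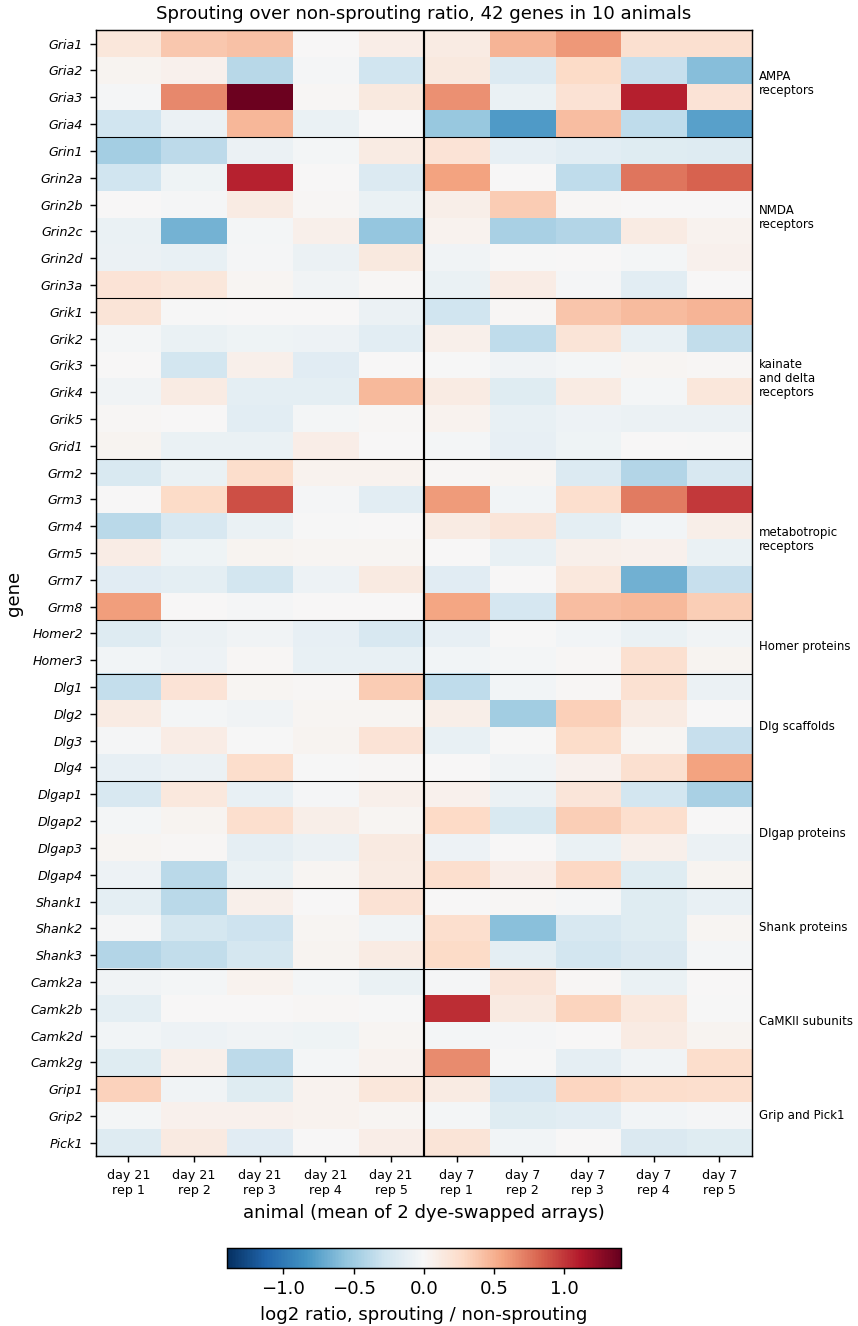
Log2 ratio of sprouting over non-sprouting neurons for each of the 42 genes (rows, by family) in each of the 10 animals (columns, day 21 left of day 7). Red marks a ratio above 0 and blue one below; Gria1 is above 0 in all 10 columns, Homer2 below 0 in all 10, and day 21 replicate 4 is nearly blank.

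The 4 AMPA receptor subunits had the widest range of mean log2 ratios of any family, from -0.12 to 0.44 at day 21 and from -0.4 to 0.41 at day 7. Gria1 encodes GluA1, the subunit that is delivered to synapses during potentiation. By probe A_43_P15761, its log2 ratios were 0.16, 0.38, 0.41, 0.01 and 0.09 in the 5 animals at day 21, and 0.11, 0.48, 0.61, 0.22 and 0.22 at day 7. Sprouting neurons were thus the higher side in 10 of 10 animals, although day 21 replicate 4 was at 0.01 with its arrays on either side of 0. The mean log2 ratio was 0.21 ± 0.18 at day 21 (SD, n = 5 animals; limma unadjusted p = 0.0248, adjusted p = 0.837; 0.26 ± 0.16 without replicate 4) and 0.33 ± 0.21 at day 7 (n = 5; limma unadjusted p = 0.00195, adjusted p = 0.39). Over both days it was 0.27 with an SE of 0.06, a 1.21-fold ratio, with a limma adjusted p of 0.394. Leaving out any single animal kept the mean over both days between 0.23 and 0.3 and the adjusted p between 0.181 and 0.567. With the scanner software's processed signals it was 0.43 over both days and 0.38 at day 21. With median centring in place of loess it was 0.21 over both days and 0.16 at day 21.

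The ratio of Gria1 was on the same side in all animals, as was that of Homer2 on the other side. These 2 of 42 genes had 1 sign in all 10 animals, where 0.62% of all genes did, and the same 2 had 1 sign in the 9 animals without day 21 replicate 4, where 1.13% of all genes did. Within a day, 3 of 42 genes had 1 sign in all 5 animals at day 21 (8.35% of all genes) and 4 of 42 at day 7 (8.6% of all genes). In the 4 animals of day 21 without replicate 4 there were 6 of 42 (14.9% of all genes): Gria1 and Grin3a above 0, and Grin2c, Shank2, Grik2 and Homer2 below.

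Gria3 (GluA3, a subunit that pairs with GluA2) had the widest spread of the 42 genes at day 21. In the 5 animals its log2 ratios were -0.02, 0.67, 1.37, 0.02 and 0.14 at day 21 and 0.64, -0.09, 0.2, 1.09 and 0.19 at day 7. It stood above 0 in 8 of 10 animals, and 1 animal of each day lay beyond 1. Both arrays of these 2 animals gave the high value, 1.42 and 1.33 in day 21 replicate 3 and 1.07 and 1.12 in day 7 replicate 4. The mean was 0.44 ± 0.59 at day 21 (0.54 ± 0.63 without replicate 4, 0.2 without replicate 3) and 0.41 ± 0.47 at day 7 (SD, n = 5 each), and over both days 0.42 with an SE of 0.15 (limma unadjusted p = 0.0179, adjusted p = 0.411).

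Gria2 encodes GluA2, the subunit that keeps AMPA receptors nearly impermeable to calcium. Single animals had log2 ratios of 0.04, 0.06, -0.39, -0.02 and -0.28 at day 21 and 0.14, -0.19, 0.27, -0.32 and -0.6 at day 7. The animals lay on both sides of 0. The mean was -0.12 ± 0.21 at day 21 (-0.14 ± 0.23 without replicate 4) and -0.14 ± 0.35 at day 7 (SD, n = 5 each), and a second probe gave -0.14 and -0.15.

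Gria4 (GluA4, a subunit of fast receptors that is common in interneurons) differed in spread between the days. The animals had log2 ratios of -0.28, -0.08, 0.46, -0.09 and 0 at day 21 and -0.53, -0.79, 0.43, -0.35 and -0.76 at day 7. At day 21 the mean was 0 ± 0.27 (SD, n = 5; 0.02 ± 0.31 without replicate 4), and at day 7, with 4 of 5 animals below 0, it was -0.4 ± 0.5 (limma unadjusted p = 0.0318, adjusted p = 0.504). A second probe of Gria4 gave a day 7 mean of -0.09, so its 2 probes were less alike. Beside it, 10 markers of GABAergic interneurons had a median ratio of 0.052 at day 21 and 0.021 at day 7. Single markers ran from -0.49 to 0.36 at day 21 and from -0.93 to 0.49 at day 7. Their summed level at day 7 ran from 35200 to 57400 intensity units in sprouting and from 35300 to 52300 in non-sprouting neurons. Their part in the ratio of Gria4 was not tested.

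**Figure D2:**
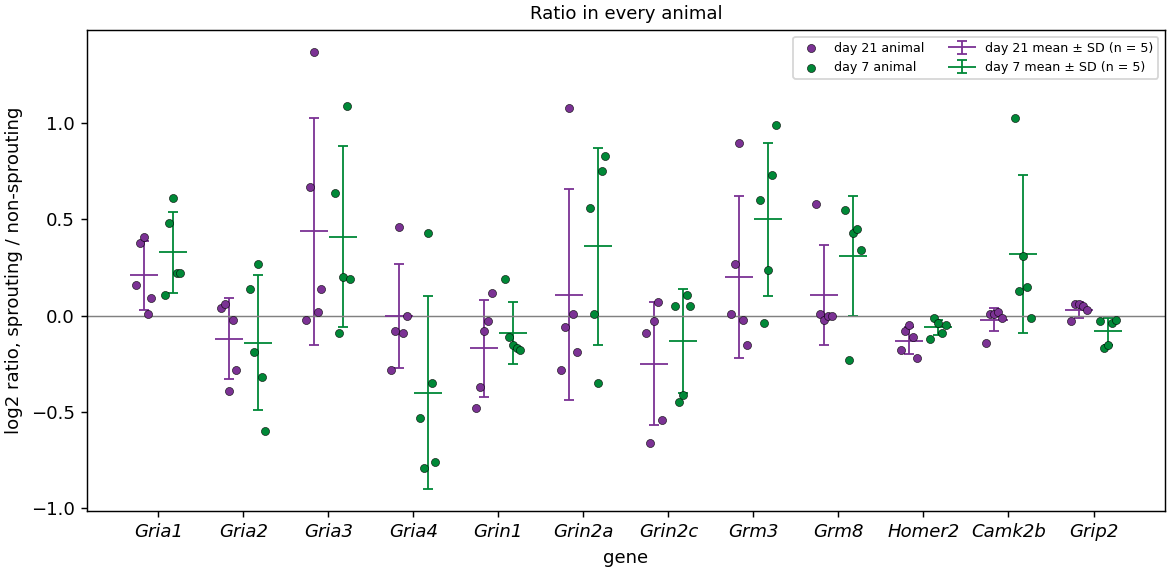
Log2 ratio of sprouting over non-sprouting neurons in every animal (points) with the mean and SD of 5 animals (bars), day 21 left of day 7 for each gene. Gria1 points all lie above 0 and Homer2 points all below. Gria3, Gria4, Grin2a, Grm3 and Camk2b spread over more than 1 log2 unit.

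Among NMDA receptor subunits no gene had a limma unadjusted p under 0.05 within a day. Grin1, the subunit that every NMDA receptor contains, had log2 ratios of -0.48, -0.37, -0.08, -0.03 and 0.12 at day 21 and 0.19, -0.11, -0.15, -0.17 and -0.18 at day 7. It was below 0 in 4 of 5 animals on each day, with means of -0.17 ± 0.25 at day 21 (-0.2 ± 0.27 without replicate 4) and -0.09 ± 0.16 at day 7 (SD, n = 5 each; limma adjusted p = 0.837 and 0.764).

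Grin2a and Grin2b encode the glutamate-binding subunits that dominate in the cortex, with Grin2b the earlier of the pair in development. For Grin2a the log2 ratios were -0.28, -0.06, 1.08, 0.01 and -0.19 at day 21 and 0.56, 0.01, -0.35, 0.75 and 0.83 at day 7. Day 21 replicate 3 stood alone at day 21, while 3 of the 5 animals at day 7 were above 0.5. The mean was 0.11 ± 0.55 at day 21 (0.14 ± 0.64 without replicate 4) and 0.36 ± 0.51 at day 7 (SD, n = 5 each; limma adjusted p = 0.965 and 0.602). A second probe of Grin2a gave -0.19 and 0 for these means, the widest gap between probes of any of the 11 genes in a mean ratio. Grin2b, by a probe well above background on 7 to 9 of 10 arrays in each group, had means of 0.01 ± 0.07 at day 21 and 0.1 ± 0.15 at day 7 (SD, n = 5 each).

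Grin2c encodes a subunit best known from cerebellar granule cells and astrocytes. Log2 ratios of Grin2c were -0.09, -0.66, -0.03, 0.07 and -0.54 at day 21 and 0.05, -0.45, -0.41, 0.11 and 0.05 at day 7. In 4 animals, 2 of each day, the ratio was below -0.4, and in the other 6 it stayed within 0.11 of 0. The day 21 mean was -0.25, and -0.33 ± 0.31 (SD) in the 4 animals without replicate 4, all below 0. The mean over both days was -0.19 with an SE of 0.09 (limma unadjusted p = 0.0479, adjusted p = 0.448). Grin2d and the glycine-binding subunit Grin3a had mean log2 ratios between -0.03 and 0.07 on both days.

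Kainate receptors, whose subunits are Grik1 to Grik5, and the delta receptor Grid1 had small ratios at low levels. Per animal and cell type their median log2 level lay between 6.54 and 7.19, beside 7.24 to 7.35 over all genes. Low levels limit what can be seen in these ratios. The 6 genes had mean log2 ratios between -0.08 and 0.05 at day 21 and between -0.11 and 0.21 at day 7, with family medians of -0.019 and -0.026. The largest was Grik1 (GluK1) at day 7, with a mean of 0.21 ± 0.33 (SD, n = 5). Grik2 (GluK2) was below 0 in 5 of 5 animals at day 21, replicate 4 included, at a mean of -0.08 ± 0.04. Its 2 arrays lay on either side of 0 in day 21 replicate 1 (0.03 and -0.1) and replicate 3 (0.15 and -0.26). No gene of the family had a limma unadjusted p under 0.05 on either day.

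Among metabotropic receptors, Grm3 and Grm8 gave similar mean ratios on 2 probes each. Grm3 encodes mGlu3, a Gi-coupled receptor of group II that neurons and glia both carry. The log2 ratios of Grm3 were 0.01, 0.27, 0.9, -0.02 and -0.15 at day 21 and 0.6, -0.04, 0.24, 0.73 and 0.99 at day 7. At day 21 the mean was 0.2 ± 0.42 (SD, n = 5; limma adjusted p = 0.898; 0.26 ± 0.46 without replicate 4, 0.03 without replicate 3), and at day 7, with 4 of 5 animals above 0, it was 0.5 ± 0.4 (unadjusted p = 0.0115, adjusted p = 0.464). The second probe gave 0.14 at day 21 and 0.47 at day 7. Over both days the mean was 0.35 with an SE of 0.12 (limma adjusted p = 0.404). Median centring in place of loess gave Grm3 0.32 at day 7 (SE 0.21) and 0.24 over both days (SE 0.15).

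Since Grm3 is also a gene of glia, glial markers are given beside it. The median log2 ratio of 11 oligodendrocyte markers was 0.6, -0.3, -0.3, 0.02 and -0.14 in the 5 animals at day 21, and -0.34, 0.19, -0.05, 0.84 and 0.92 at day 7. Day 7 replicates 4 and 5, with Grm3 at 0.73 and 0.99, had these markers at 0.84 and 0.92. Day 21 replicate 3 and day 7 replicate 1, with Grm3 at 0.9 and 0.6, had them at -0.3 and -0.34. The summed level of these markers ran from 12800 to 50500 intensity units in sprouting and from 14600 to 44000 in non-sprouting neurons at day 21, and from 35400 to 76500 in sprouting and from 38200 to 72000 in non-sprouting neurons at day 7. For 10 astrocyte markers the median ratio lay between -0.12 and 0.01 at day 21 and between -0.13 and 0.41 at day 7, with the highest in day 7 replicate 5. Their summed level ran from 15900 to 22300 intensity units in sprouting and from 17800 to 24900 in non-sprouting neurons at day 21, and from 20600 to 29000 in sprouting and from 22500 to 27400 in non-sprouting neurons at day 7. No marker of either list was at 0, and their part in the ratio of Grm3 was not tested. In captured tissue, fewer cells of a type and less RNA per cell cannot be told apart.

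**Figure D3:**
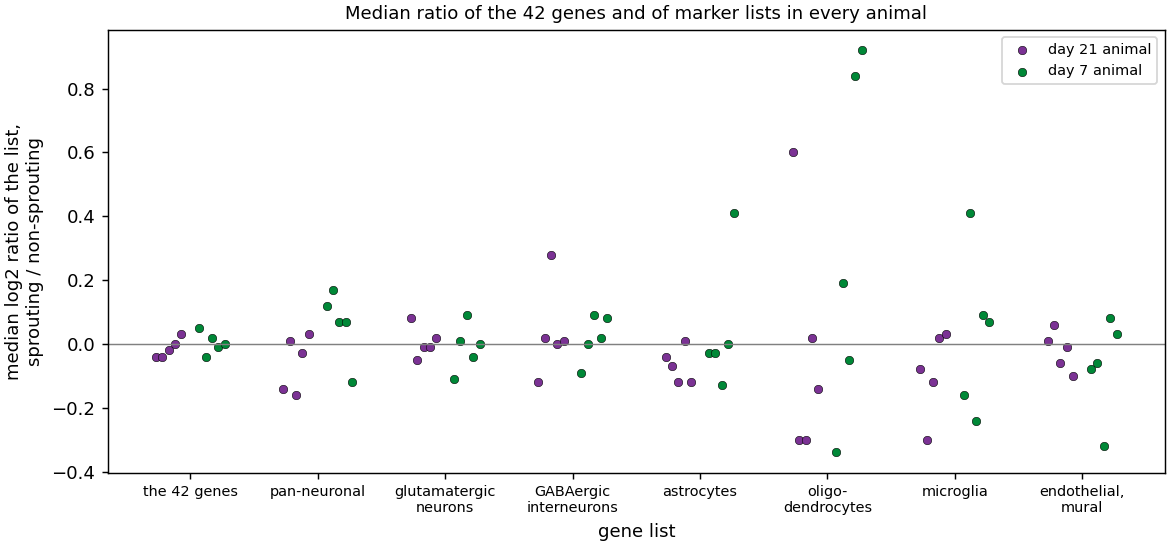
Median log2 ratio of sprouting over non-sprouting neurons for the 42 genes and for 7 lists of cell type markers, 1 point per animal, day 21 left of day 7. The 42 genes stay between -0.04 and 0.05, while the oligodendrocyte list ranges from -0.34 to 0.92.

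Grm8 encodes mGlu8, a presynaptic receptor of group III. Animals had Grm8 log2 ratios of 0.58, 0.01, -0.02, 0 and 0 at day 21 and 0.55, -0.23, 0.43, 0.45 and 0.34 at day 7. At day 21 a single animal was high and 4 lay within 0.02 of 0, whereas at day 7 it was above 0 in 4 of 5 animals. The mean was 0.11 ± 0.26 at day 21 (0.14 ± 0.29 without replicate 4) and 0.31 ± 0.31 at day 7 (SD, n = 5 each; limma adjusted p = 0.92 and 0.484), and the second probe gave 0.08 and 0.3.

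The other metabotropic receptors were closer to 0 or below it. Grm2, the partner of Grm3 in group II, had a mean of 0.01 ± 0.17 at day 21 and -0.15 ± 0.18 at day 7 (SD, n = 5 each), so that the 2 genes of this group had mean ratios on opposite sides of 0 at day 7. Grm4 (mGlu4, presynaptic) had log2 ratios of -0.38, -0.22, -0.09, -0.01 and 0 at day 21, with a mean of -0.14 ± 0.16 (limma unadjusted p = 0.0417, adjusted p = 0.837; -0.17 ± 0.16 without replicate 4), and a mean of 0.03 ± 0.12 at day 7. Over the alternatives its day 21 mean ran from -0.32, with the scanner software's processed signals, to -0.06, with the scan day as a block. Grm7 (mGlu7, presynaptic) stood at -0.1 ± 0.15 at day 21 and -0.2 ± 0.31 at day 7. Grm5 encodes mGlu5, the group I receptor that Homer proteins bind, and its probe, well above background on 7 to 9 of 10 arrays, gave 0.03 ± 0.06 at day 21 and -0.01 ± 0.08 at day 7.

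Homer2, which joins group I receptors to Shank, was the only one of the 42 genes below 0 in every animal. By probe A_42_P640641, the log2 ratios of Homer2 were -0.18, -0.08, -0.05, -0.11 and -0.22 at day 21 and -0.12, -0.01, -0.04, -0.09 and -0.05 at day 7. The values were small but lay in a narrow band on 1 side of 0. The mean was -0.13 ± 0.07 at day 21 (SD, n = 5; limma unadjusted p = 0.00228, adjusted p = 0.837; -0.13 ± 0.08 without replicate 4) and -0.06 ± 0.04 at day 7 (adjusted p = 0.548). Over both days it was -0.1 with an SE of 0.02 (limma unadjusted p = 0.00156, adjusted p = 0.394), and between -0.11 and -0.08 with any 1 animal left out. The size depended on the normalization: with median centring in place of loess Homer2 was at -0.06 at day 21 (SE 0.06) and -0.06 over both days (SE 0.04), and with the scanner software's processed signals at -0.22 (SE 0.11) and -0.18 (SE 0.07). The probe lay well above background on 8 of 10 arrays in either cell type at day 21. Homer3 had means of -0.06 ± 0.05 at day 21 and 0.04 ± 0.1 at day 7.

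**Figure D4:**
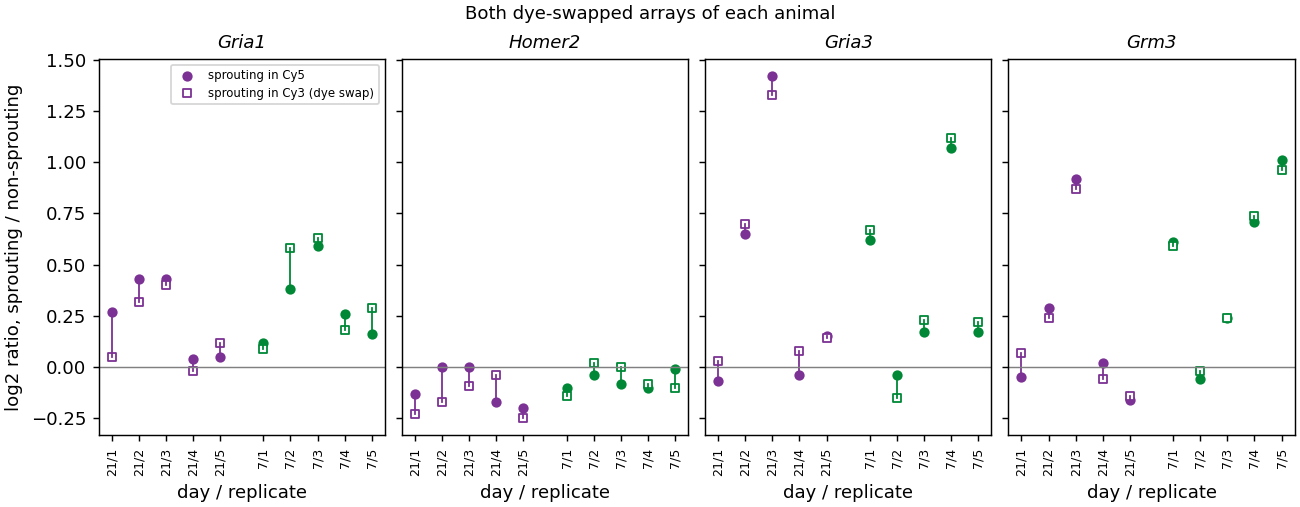
Log2 ratio of sprouting over non-sprouting neurons on both dye-swapped arrays of each animal for Gria1, Homer2, Gria3 and Grm3 (filled circles, sprouting neurons in Cy5; open squares, in Cy3; labels give day and replicate, day 21 left). The high ratios of Gria3 and Grm3 recur on both arrays of an animal, while the ratios of Homer2 are about as small as the gap between its arrays.

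The mean ratios of the scaffold proteins lay near equality, while single animals lay further out. Dlg4 encodes PSD-95, the main scaffold of mature excitatory synapses. Its log2 ratios were -0.11, -0.08, 0.25, -0.01 and 0.02 at day 21 and 0, -0.05, 0.06, 0.22 and 0.56 at day 7. Apart from day 7 replicate 5, all animals lay within 0.25 of 0. The mean was 0.01 ± 0.14 at day 21 (0.02 ± 0.16 without replicate 4) and 0.16 ± 0.24 at day 7 (SD, n = 5 each; limma adjusted p = 0.99 and 0.568), and a second probe gave -0.01 and 0.07. Dlg1 (SAP97), Dlg2 (PSD-93) and Dlg3 (SAP102) had means between 0.02 and 0.06 at day 21 and between -0.05 and 0.01 at day 7. At day 7, the 2 arrays gave Dlg2 ratios of -0.49 and -0.48 in replicate 2 and 0.3 and 0.35 in replicate 3. At day 21, those of Dlg1 were -0.3 and -0.35 in replicate 1 and 0.36 and 0.34 in replicate 5. The Dlgap proteins, which bind the Dlg proteins, had means between -0.08 and 0.07 at day 21 and between -0.11 and 0.13 at day 7.

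All 3 Shank genes, the large scaffolds at the base of the postsynaptic density, had means below 0 on both days. The family median was -0.117 at day 21 and -0.072 at day 7. Shank3 had log2 ratios of -0.41, -0.34, -0.25, 0.04 and 0.11 at day 21 and 0.27, -0.14, -0.26, -0.2 and -0.03 at day 7. It was below 0 in 3 of 5 animals at day 21 and in 4 of 5 at day 7, so that every day held animals on both sides. The mean was -0.17 ± 0.23 at day 21 (-0.22 ± 0.23 without replicate 4) and -0.07 ± 0.21 at day 7 (SD, n = 5 each; limma adjusted p = 0.837 and 0.818). Shank2 had means of -0.12 ± 0.14 at day 21 and -0.14 ± 0.31 at day 7, and Shank1 had -0.05 on both days. The second probe of Shank2 gave 0.04 at day 21 and -0.02 at day 7.

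The 4 CaMKII subunits had mean log2 ratios between -0.09 and -0.02 at day 21, with a median of -0.034, and between 0.02 and 0.32 at day 7, with a median of 0.084. The largest was Camk2b, the beta subunit, which also bundles actin. For Camk2b the log2 ratios were -0.14, 0.01, 0.01, 0.02 and -0.01 at day 21 and 1.03, 0.13, 0.31, 0.15 and -0.01 at day 7. A single animal, day 7 replicate 1, was far above the others, with 0.99 and 1.08 on its 2 arrays. The mean was -0.02 ± 0.06 at day 21 (-0.03 ± 0.07 without replicate 4) and 0.32 ± 0.41 at day 7 (SD, n = 5 each; limma adjusted p = 0.988 and 0.478), and a second probe gave -0.01 and 0.03. Without day 7 replicate 1 the day 7 mean was 0.14. Camk2g, which also peaked in day 7 replicate 1 at 0.66, had means of -0.09 ± 0.18 at day 21 and 0.14 ± 0.32 at day 7. Camk2a, the alpha subunit of forebrain excitatory neurons, had -0.03 ± 0.05 at day 21 and 0.02 ± 0.1 at day 7. At day 21 its probe lay well above background on 8 of 10 arrays in sprouting and 7 of 10 in non-sprouting neurons.

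Grip1, Grip2 and Pick1 bind the tails of GluA2 and GluA3 and steer their traffic. Grip2 had log2 ratios of -0.03, 0.06, 0.06, 0.05 and 0.03 at day 21 and -0.03, -0.17, -0.15, -0.04 and -0.02 at day 7. It was above 0 in 4 of 5 animals at day 21 (replicate 4 among them) and below 0 in 5 of 5 at day 7, with means of 0.03 ± 0.04 at day 21 (also 0.03 ± 0.04 without replicate 4) and -0.08 ± 0.07 at day 7 (SD, n = 5 each). The 2 arrays of an animal lay on either side of 0 in day 21 replicate 3 (0.13 and -0.02), day 21 replicate 4 (0.17 and -0.07) and day 7 replicate 1 (0.05 and -0.11). In the other animals both arrays were on the same side. The days overlapped, since day 7 replicate 5 at -0.02 lay above day 21 replicate 1 at -0.03. Grip1 had means of 0.06 ± 0.19 at day 21 and 0.13 ± 0.21 at day 7, and Pick1 had -0.02 ± 0.14 at day 21 and -0.05 ± 0.15 at day 7.

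The difference of the ratio between the days was tested in the same fit, as day 21 minus day 7. No gene of the 42 was called, where 0% of all genes were, and 1 of 42 had a limma unadjusted p under 0.05, where 4.08% of all genes did. This was Grip2, with a difference of 0.11 (SE 0.04, limma unadjusted p = 0.0267, adjusted p = 0.94). Within the 3 scan days that held animals of both cohorts the difference for Grip2 was 0.15, 0.08 and 0.07. Here and for the levels below, each value sets 1 day 7 animal against 2, 2 and 1 day 21 animals, in that order. A sign kept over the 3 values thus rests on few animals. The first value includes day 21 replicate 4, and its day 7 animal had its second array scanned on another scan day. Camk2b had a difference of -0.34 (SE 0.17, adjusted p = 0.94) and Gria4 one of 0.4 (SE 0.23, adjusted p = 0.94). Camk2b had differences of -0.36, 0.02 and -0.16 within the 3 scan days, and Gria4 had -0.62, 0.95 and 0.35, so that neither kept a single sign. In none of the 42 genes were the days free of overlap in the ratio, where 0.771% of all genes were.

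The level of each gene in 1 cell type was compared between the cohorts, day 21 over day 7, on log2 channel intensities after normalization between arrays. These levels share arrays between the cell types, so values of the same gene in both are not independent. None of the 42 genes was called by limma in sprouting neurons or in non-sprouting neurons, where 0% of all genes were in either. At an unadjusted p under 0.05 there were 3 of 42 in sprouting neurons (8.98% of all genes) and 5 of 42 in non-sprouting neurons (9.2% of all genes). The median log2 difference of the 42 genes was -0.048 in sprouting neurons, beside -0.054 over all genes, and -0.051 in non-sprouting neurons, beside -0.052. The days overlapped in all 42 genes in both cell types, where 1.53% of all genes were free of overlap in either.

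Camk2d, the delta subunit of CaMKII, had the largest level difference between the days, by a dim probe that lay well above background on 6 to 8 of 10 arrays in each group. Its log2 levels in sprouting neurons were 8.76, 6.81, 7, 7.44 and 8.6 at day 21 and 6.3, 6.33, 6.42, 7.23 and 7.77 at day 7. In non-sprouting neurons they were 8.79, 6.88, 7.06, 7.5 and 8.57 at day 21 and 6.32, 6.35, 6.4, 7.11 and 7.73 at day 7. Each animal had nearly the same level in both of its cell types, and the days overlapped. The log2 difference was 0.91 in sprouting neurons (SE 0.44, limma adjusted p = 0.56) and 0.97 in non-sprouting neurons (SE 0.42, adjusted p = 0.534). Within the 3 scan days it was 1.68, -0.86 and 1.37 in sprouting neurons and 1.74, -0.76 and 1.45 in non-sprouting neurons, and a second probe gave 0.22 in each cell type. Over the alternatives the difference ran from 0.57 with the mean of both probes to 1.73 with processed signals in sprouting neurons, and from 0.6 to 1.91 in non-sprouting neurons.

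Grin2c had mean levels at day 21 below those at day 7 in both cell types. Its log2 levels in sprouting neurons were 11.23, 10.38, 10.91, 10.67 and 10.41 at day 21 and 11.37, 11.2, 10.86, 11.27 and 11.31 at day 7. In non-sprouting neurons they were 11.32, 11.04, 10.95, 10.6 and 10.94 at day 21 and 11.33, 11.65, 11.27, 11.16 and 11.27 at day 7. The highest day 21 animal, replicate 1, reached into the range of day 7 in both. The log2 difference was -0.48 in sprouting neurons (SE 0.18, limma adjusted p = 0.531) and -0.36 in non-sprouting neurons (SE 0.15, adjusted p = 0.521). Within the 3 scan days it was 0.09, -0.67 and -0.87 in sprouting neurons and -0.3, -0.27 and -0.22 in non-sprouting neurons. The 10 astrocyte markers, whose summed levels are given above with Grm3, had a median level difference of -0.302 in sprouting and -0.218 in non-sprouting neurons. Over all genes these medians were -0.054 and -0.052. In each cell type 9 of the 10 markers were below 0, where 41% and 40.5% of all genes were above 0. The part of these markers in the level of Grin2c was not tested.

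Several receptor genes had level differences of similar size in both cell types. Gria1 had a level difference of 0.31 in sprouting neurons (SE 0.21, limma adjusted p = 0.592) and 0.43 in non-sprouting neurons (SE 0.2, adjusted p = 0.543). Grm7 had a level difference of -0.36 in sprouting neurons (SE 0.2) and -0.46 in non-sprouting neurons (SE 0.17, limma adjusted p = 0.505). Neither gene kept a single sign within the 3 scan days in sprouting neurons, at -0.1, 1 and -0.02 for Gria1 and -0.82, 0.35 and -0.18 for Grm7. In non-sprouting neurons the values were 0.42, 0.83 and 0.11 for Gria1, all above 0, and -0.56, 0.23 and -0.97 for Grm7. Gria3 had a level difference of 0.51 (SE 0.33) in sprouting and 0.48 (SE 0.37) in non-sprouting neurons. Without day 21 replicate 4 the non-sprouting value was 0.31. By scan day Gria3 had -0.58, 0.91 and 0.06 in sprouting and -0.38, 0.08 and 1.01 in non-sprouting neurons. Gria2 had level differences of -0.24 (SE 0.15) and -0.27 (SE 0.17). By scan day Gria2 had -0.15, -0.37 and -0.29 in sprouting and 0.11, -0.8 and -0.33 in non-sprouting neurons.

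For 3 other genes the cell types were less alike. Such a gap is the difference of the ratio between the days in another form, and is no further result. Grm3 had a level difference of -0.43 in sprouting neurons (SE 0.18, limma adjusted p = 0.539) and -0.13 in non-sprouting neurons (SE 0.3). Without day 21 replicate 4 the non-sprouting value was -0.31. Within the 3 scan days Grm3 had -0.56, -0.49 and -0.65 in sprouting and -0.31, -0.09 and 0.23 in non-sprouting neurons. Beside it, the 11 oligodendrocyte markers had a median difference of -0.699 in sprouting and -0.325 in non-sprouting neurons, and 10 astrocyte markers had -0.302 and -0.218; their part in the level of Grm3 was not tested. Camk2b had a level difference of 0.28 in sprouting neurons (SE 0.24) and 0.62 in non-sprouting neurons (SE 0.24, limma adjusted p = 0.513). Its second probe gave 0.03 and 0.07. The gap by the brightest probe includes day 7 replicate 1, with its ratio of 1.03. By scan day Camk2b had 0.41, 1.04 and 0.01 in sprouting and 0.78, 1.02 and 0.17 in non-sprouting neurons. Gria4 had a level difference of 0 in sprouting neurons (SE 0.31) and -0.39 in non-sprouting neurons (SE 0.16, limma adjusted p = 0.526). Its second probe gave -0.35 and -0.42. By scan day Gria4 had -1.1, 1.12 and -0.23 in sprouting and -0.48, 0.17 and -0.57 in non-sprouting neurons.

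Probes of Grip1 disagreed on the level. The brightest gave a log2 difference of -0.34 in sprouting neurons and -0.27 in non-sprouting neurons, and the other probe gave 0.68 and 0.71. No direction can be given for the level of Grip1 between the days.

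**Figure D5:**
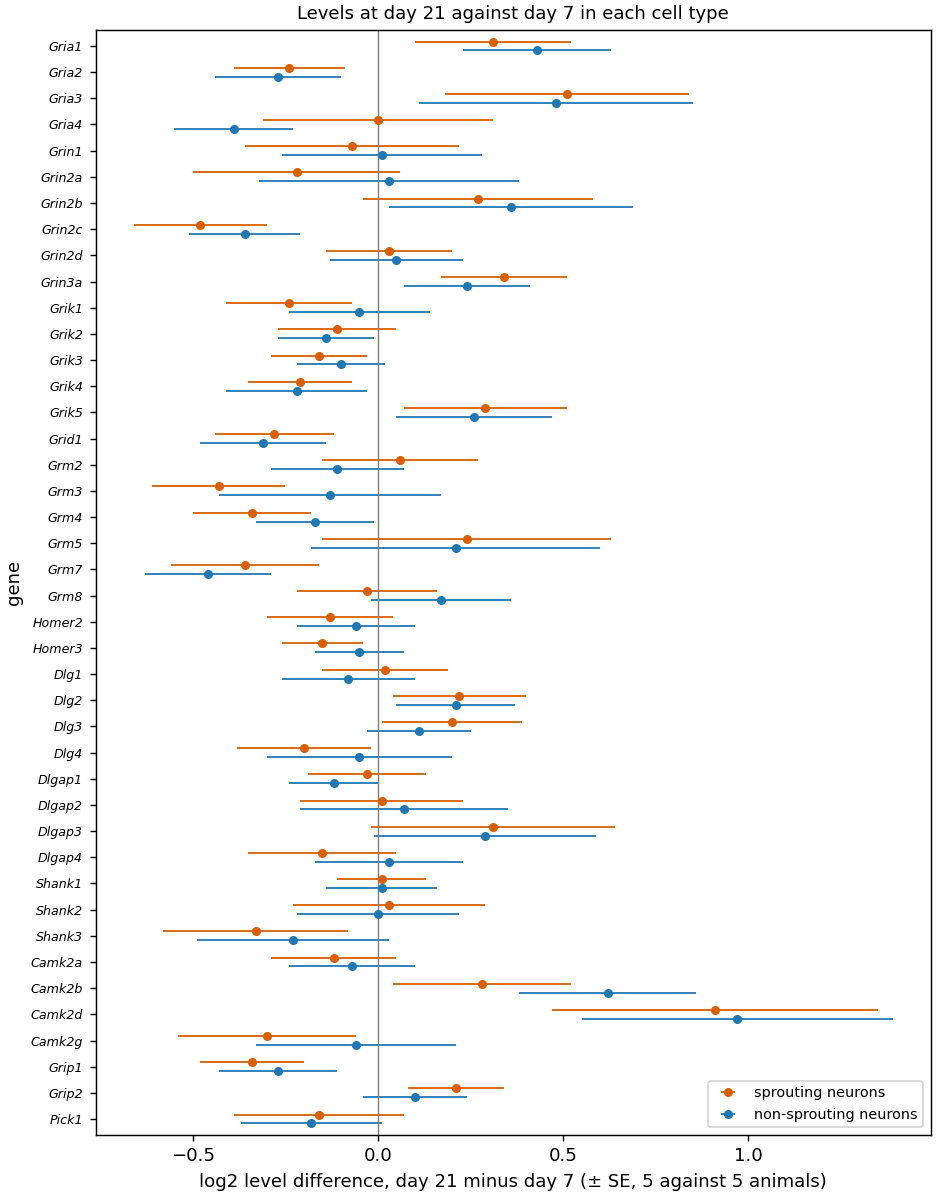
Log2 level difference, day 21 minus day 7, with its SE for each of the 42 genes in sprouting neurons (orange, above) and non-sprouting neurons (blue, below), from 5 against 5 animals. Camk2d has the largest difference in both cell types, at 0.91 and 0.97, with the widest SEs; most genes lie within 0.5 of 0.

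A second list of 47 genes of the glutamatergic synapse, chosen for their known roles, was set beside the 42: auxiliary subunits of AMPA and kainate receptors, neuroligins and other adhesion proteins, further scaffolds, phosphatases and transporters. Of these, 42 were tested, and 0 were called in any comparison. At day 21, 21 had a mean ratio above 0 and 21 below (median -0.002), and at day 7, 18 were above and 24 below (median -0.006). At an unadjusted p under 0.05 there were 1 at day 21 and 6 at day 7 (5.85% and 9.48% of all genes).

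Neto2, an auxiliary subunit of kainate receptors, had the largest mean of that list over both days. Its log2 ratios were 0.28, 0.63, 1.15, -0.05 and 0.2 at day 21 and 0.95, -0.32, 0.73, 1.15 and 0.65 at day 7. It stood above 0 in 4 of 5 animals on each day. The mean was 0.44 ± 0.46 at day 21 (SD, n = 5; limma adjusted p = 0.837; 0.56 ± 0.43 without replicate 4) and 0.63 ± 0.57 at day 7 (adjusted p = 0.464). Ppp1r9a (neurabin, an actin-binding scaffold of spines) had a mean over both days of 0.16 (SE 0.05, limma adjusted p = 0.404). On the lower side, Cnksr2 (a scaffold that binds PSD-95) had -0.21 over both days (SE 0.06, adjusted p = 0.396), and the adhesion protein Nlgn1 (neuroligin 1) had -0.19 (SE 0.08, adjusted p = 0.433).

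In the level comparison, Nsf, the ATPase that also binds GluA2, had a log2 difference of 0.88 in sprouting neurons (SE 0.21, limma unadjusted p = 0.00155, adjusted p = 0.366) and 1.04 in non-sprouting neurons (SE 0.23, unadjusted p = 0.000805, adjusted p = 0.38). Lin7a, a small PDZ scaffold, had -0.59 in sprouting neurons (SE 0.18, adjusted p = 0.459) and -0.73 in non-sprouting neurons (SE 0.19, adjusted p = 0.464). Lrrtm2, a postsynaptic adhesion protein, had -0.52 in sprouting (SE 0.18) and -0.61 in non-sprouting neurons (SE 0.19). By scan day, in sprouting neurons, Lrrtm2 had -0.49, 0.1 and -0.99. Nsf had 0.99, 0.89 and 0.24 there, and Lin7a had -0.58, -0.1 and -1.02.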

How the data were processed

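The deposited scanner files hold spot intensity in 2 channels, per the file headers from Agilent Feature Extraction 9.1.3.1. In limma 3.58.1 (R 4.3.3), mean signals were corrected with normexp at an offset of 50 and normalized by loess within arrays, with 2256 control spots weighted 0. Every ratio was put as sprouting over non-sprouting, and an animal's 2 arrays were averaged. Probes were required to be well above background on 0.5 of the arrays of some cell type and day, with values in 3 animals of each day; 37345 of 41012 qualified. From a table of log2 ratios that the authors deposited, made in a way not given in the sources used here, 20 columns served as an alternative (each matched its own array best) and 20 were not used. Channel levels were normalized between arrays with Aquantile. Symbols were updated with RefSeq names of the GRCr8 assembly, and no positions are given.

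The rule for named genes takes, per comparison, up to 4 members on each side with the smallest unadjusted p, 10 well-studied members always, and up to 2 genes on each side from the second list; members named further are given by family or because their probes disagree. The members and lists were chosen with earlier results of these data known. The fit was tested on simulated data. Scan days (5, of which 3 held both cohorts) were tried as a block. Replicate numbers do not pair animals: the cohorts are separate. Replicates are separate animals per the labels.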

Additional observations from a re-analysis of the deposited data

Results flagged for a closer look

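In 7 of 84 groups of 5 animals, 1 animal's log2 ratio of sprouting over non-sprouting neurons lay far from the other 4, by Dixon's test at a critical value of 0.71. About 1 in 20 groups would be flagged if values were normal and groups independent, but the 84 groups share the same 10 animals. The flagged share over all genes is not given, so the count does not set these genes apart. At day 21, where each group includes replicate 4, the flagged ratios were Grin2a in replicate 3 at 1.08 (the others between -0.28 and 0.01), Grm8 in replicate 1 at 0.58 (the others between -0.02 and 0.01) and Camk2b in replicate 1 at -0.14 (the others between -0.01 and 0.02). At day 7 they were Grin1 in replicate 1 at 0.19 (the others between -0.18 and -0.11), Grin2b in replicate 2 at 0.35 (the others between 0.01 and 0.08), Grik5 in replicate 1 at 0.05 (the others between -0.1 and -0.07) and Grm8 in replicate 2 at -0.23 (the others between 0.34 and 0.55). The flagged Grik5 value averages arrays on either side of 0, at 0.16 and -0.06.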

How the results depend on the processing

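No member was called under any alternative but 1. Counting the 20 arrays as partly separate, with the animal as a random block, called 2 members at day 7 (Gria1, adjusted p = 0.0184; Grm3, adjusted p = 0.0309) and 3 over the mean of both days (Gria1, 0.0113; Grm3, 0.0305; Gria3, 0.0425). That setting called 403 and 509 of all genes, against 1 and 0, and 4 in the difference between the days, and also passed Neto2, Cnksr2 and, over both days, Ppp1r9a. The single gene called at day 7 was lost under 8 alternatives (0 to 1 with an animal left out). The median of the members was 0.012 at day 21 with the scanner software's processed signals (-0.017 otherwise), 0.006 in the difference between the days with the stricter filter, which keeps 23 members of 11499 genes (-0.034 otherwise), and -0.208 for sprouting neurons, day 21 over day 7, with no normalization between arrays (-0.048 otherwise).

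In sprouting neurons, day 21 over day 7, Camk2b was at -0.10 and Gda at -0.07 with no normalization between arrays (0.28 and 0.39 otherwise), and Grip1 at 0.17 with the mean of all probes (-0.34 otherwise). A value within 1 SE of 0 was taken to have no direction. The cause of these changes was not tested. Members at an unadjusted p under 0.05 numbered 3 at day 21 (1 to 7 over the alternatives; 1 without replicate 2 or 3, 5 without replicate 4 or 5), 6 at day 7 (3 to 12; 11 without replicate 2, 3 without replicate 5), 6 over both days (5 to 15; 10 without day 7 replicate 1), 1 in the difference between the days (0 to 4), 3 in the level of sprouting neurons (1 to 8) and 5 in that of non-sprouting neurons (1 to 6). With the replicate block 0 members were called, and 6 members in sprouting neurons, day 21 over day 7, had an unadjusted p under 0.05, against 3 without it; same-numbered animals correlated between -0.19 and 0. For these counts under the alternatives the share of all genes is not given, except for day 21 without replicate 4 (6.56%). The counts therefore do not set the members apart from all genes. Leaving out each animal in turn called 0 members in every comparison. Small counts of captured cells and dim probes (among them Grin3a, Camk2d, Grm5, Grin2b and Camk2a) limit what can be seen.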
